A study of Mus musculus with 8 samples.

Results

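The 10 genes described here encode enzymes listed in the routes by which the intestinal epithelium can build triglyceride from absorbed fat: Mogat2, Gpat3, Gpat4, Agpat2, Lpin2, Lpin3, Plpp1, Plpp3, Dgat1 and Dgat2. They are named by symbol for their place in the monoacylglycerol and glycerol phosphate routes, and the choice was made with earlier results of these data known. All 10 were found among the 56980 gene identifiers of the count data, and all 10 passed the filter on low counts that left 15986 genes for testing. RNA was taken from scrapings of the jejunal mucosa of male mice, a mixed tissue in which enterocytes are the main cell type. Both genotypes carried floxed Ffar2, the gene of the free fatty acid receptor FFA2. The floxed controls (FFA2 fl/fl, 4 libraries) had no Cre, and their Adipoq-F2-KO littermates (4 libraries) carried an adiponectin-driven Cre, which is active in adipocytes and removes the receptor there. Mice reached 12 weeks of age on chow and then received a Western diet containing 10% fructooligosaccharides (FOS) for 2 weeks in thermoneutral housing. The comparison asks whether deleting the receptor in fat tissue changes the jejunal program for handling dietary fat.

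Dietary triglyceride is split in the gut lumen, and enterocytes rebuild it at the endoplasmic reticulum. In the monoacylglycerol route, which carries most of the flux after a fatty meal, an acyltransferase (MGAT) adds a fatty acid to monoacylglycerol. In the glycerol phosphate route, acyltransferases (GPAT, then AGPAT) build phosphatidic acid, and a phosphatase removes its phosphate. Both routes end in diacylglycerol, to which a diacylglycerol acyltransferase (DGAT) adds the last fatty acid before the product is stored in droplets or exported in chylomicrons.

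Of the 8 libraries, 5 held at least 10000000 counts and are called deep, and 3 held fewer and are called shallow. The range was 6007654 to 21712776. The shallow libraries were floxed library 3 and Adipoq-F2-KO libraries 3 and 4. Floxed library 3 stood apart, with a summed level of the 8 smooth muscle markers of 29094 normalized counts, against 3688 to 11893 in the other 7 libraries. The 17 villus enterocyte markers were all detected, and their summed level was 531005 to 607810 normalized counts in the floxed controls and 557823 to 575688 in Adipoq-F2-KO. Ffar2 itself had 2 to 18 raw counts in the floxed libraries and 3 to 13 in Adipoq-F2-KO, which does not test a deletion made in adipocytes. The mice were littermates of both genotypes housed together, but the labels do not say which samples shared a litter, and p-values measure the spread between these samples. In bulk tissue, fewer cells of a type and less RNA per cell cannot be told apart.

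Mogat2, Dgat1 and Dgat2, the acyltransferases of the monoacylglycerol route, had the highest levels of the 10, and the genes that serve the glycerol phosphate route before its shared last step lay below them. To compare genes, normalized counts (counts scaled by each library's DESeq2 size factor) were divided by the exon length of the gene in kilobases. Mogat2, the intestinal MGAT, had a level of 2297 ± 468 (SD over 8 libraries) normalized counts per kb. Dgat1, the DGAT of the endoplasmic reticulum membrane, had 2293 ± 393. Dgat2, the second and unrelated DGAT, had 1872 ± 668. The order of Mogat2 and Dgat1 was not resolved, since their means were equal within their spread and Mogat2 was above Dgat1 in 1 of 8 libraries. Dgat1 was above Dgat2 in 7 of 8 libraries. Then came Agpat2 with 973 ± 190, Gpat3 with 585 ± 44.6 and Plpp1 with 415 ± 56.3, each above the next gene in the order in 8 of 8 libraries. Lpin3, with 303 ± 65.0, was above Lpin2, with 237 ± 63.4, in 7 of 8 libraries, and their ranges overlapped. Plpp3, with 78.5 ± 27.8, and Gpat4, with 37.2 ± 4.88, were the lowest.

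The order rests on exon lengths. With the length of the longest principal transcript in place of all annotated exons, Dgat1 had 3712 per kb, Dgat2 2551 and Mogat2 2368, and Lpin2 (515) came above both Plpp1 (454) and Lpin3 (323). The 12233 bases of annotated exon of Lpin2 compare with 5640 in its principal transcript, and its level moved by the largest factor of the 10.

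**Figure D1:**
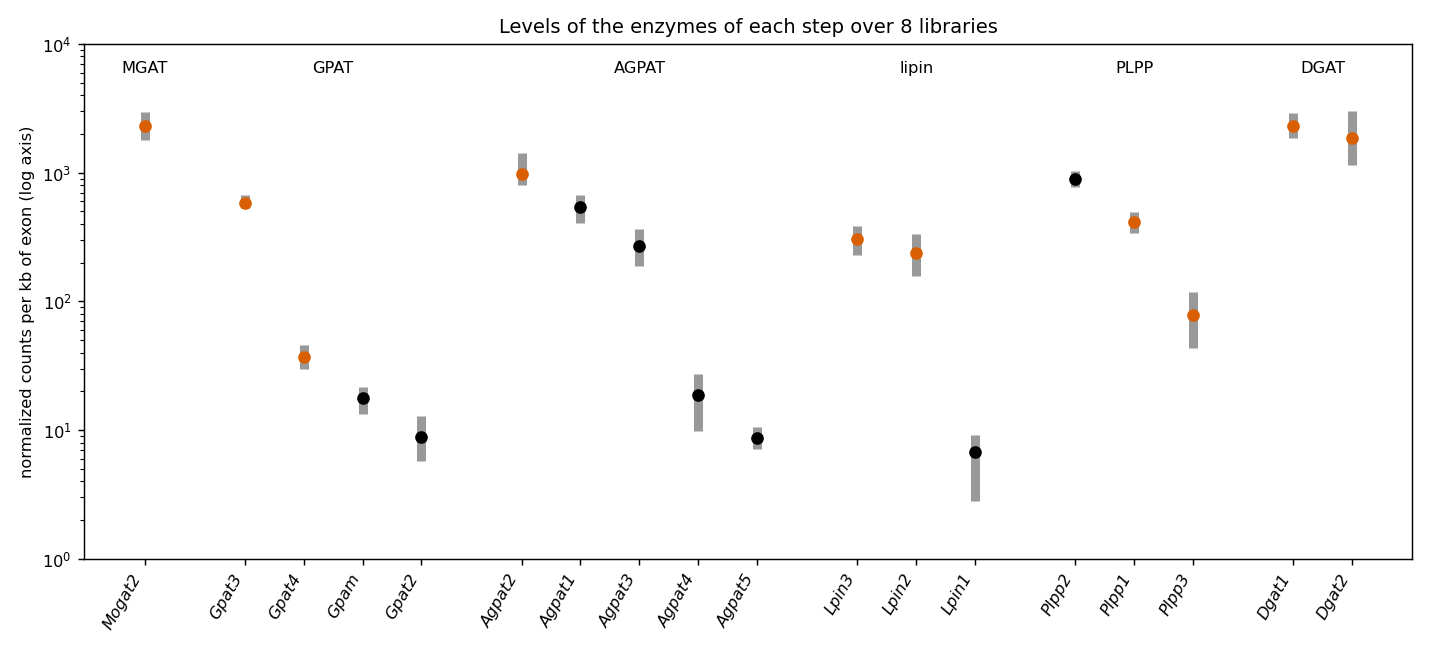
Normalized counts per kb of exon on a log axis for the enzymes of each step, as the mean (point) and the range (bar) over 8 libraries, with the 10 genes in orange and other isoforms in black. Mogat2, Dgat1 and Dgat2 had means of 1872 to 2297, and the means of Lpin1 and the mitochondrial Gpam and Gpat2 lay below 20; Mogat1, with 10 raw counts in all 8 libraries together, is not drawn.

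Within each step the isoforms were unequal. Mogat1, the MGAT of other tissues, was close to absent, with 10 raw counts summed over all libraries, and was not tested. Gpat3, a GPAT of the endoplasmic reticulum, made up 90.1% ± 0.90 (SD over 8 libraries) of the GPAT level per kb. Gpat4, the other GPAT of that membrane, made up 5.73% ± 0.66 (10.2% without the length correction), and the mitochondrial Gpam and Gpat2 made up the rest. Agpat2, which makes phosphatidic acid from lysophosphatidic acid, held 53.7% ± 4.81 of the AGPAT level, ahead of Agpat1 with 29.97% ± 4.76 and Agpat3 with 14.8% ± 1.68. Without the length correction, Agpat3 (35.08%) and Agpat2 (35.00%) were level. The lipins, soluble phosphatases that turn phosphatidic acid into diacylglycerol, were represented by Lpin3 (55.5% ± 7.48) and Lpin2 (43.2% ± 7.30), with Lpin1, the lipin of fat and muscle, at 1.30% ± 0.52. The order of Lpin3 and Lpin2 turned without the length correction (27.9% and 70.4%) and with principal transcript lengths (38.4% and 60.1%). Plpp1 and Plpp3 belong to a family of membrane phosphatases that act on several lipid phosphates, many of them outside the cell. Their relative Plpp2 led that family with 64.4% ± 1.51, and Plpp1 held 29.9% ± 1.70.

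No gene of the 10 differed between the genotypes at an adjusted p below 0.05 in DESeq2, with 0.0375% of all tested genes called (6 of 15986). The edgeR quasi-likelihood test also called 0 of the 10. At an unadjusted p below 0.05, 2 of the 10 were lower in Adipoq-F2-KO, Plpp3 and Dgat2, in DESeq2, where 1.38% of all tested genes were lower at that threshold. In edgeR 2 of the 10 were also lower and below 0.05, against 1.86% of all tested genes. The fitted log2 fold change was below 0 for 8 of the 10 genes and above 0 for 2, with a median of −0.18, against −0.01 over all tested genes. The values of the genotypes overlapped for each of the 10, where 2.12% of all tested genes had no overlap.

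**Figure D2:**
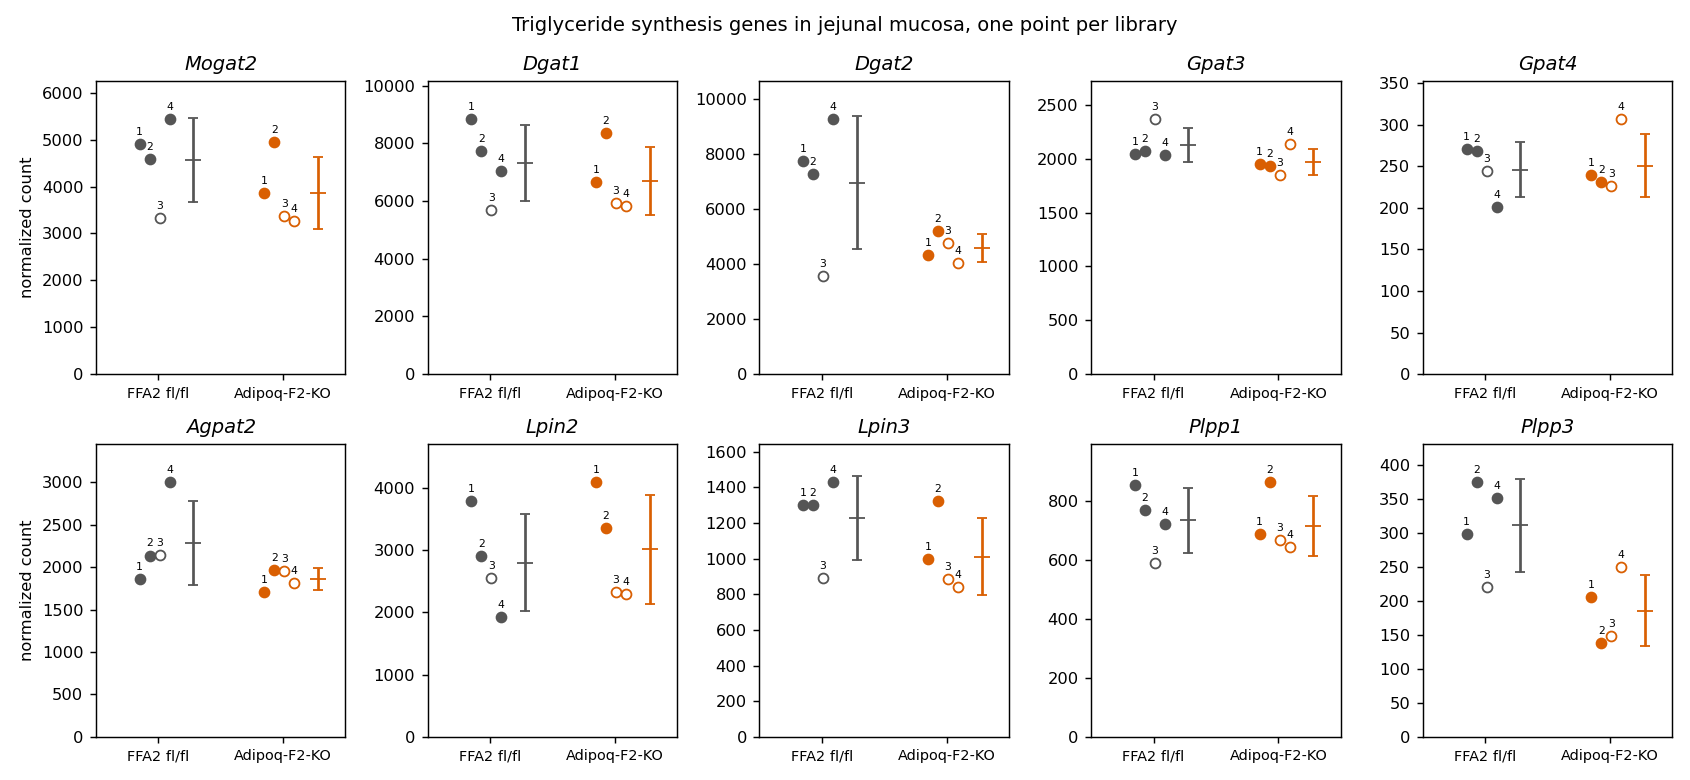
Normalized counts of the 10 genes in each library (points, with the replicate number; open points are the 3 shallow libraries) with the mean and SD of each genotype, n = 4. The genotypes overlap in every panel, and for Dgat2 floxed library 3 (3561) lies below all 4 Adipoq-F2-KO libraries while the other 3 floxed libraries (7276 to 9270) lie above them.

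Dgat2, which adds the last fatty acid and is tied to lipid droplets, had a coefficient of variation of 35.7% over 8 libraries. This was the highest of the 10, with Plpp3 nearly the same at 35.4%. Its normalized counts were 7738, 7276, 3561 and 9270 in floxed libraries 1 to 4. They were, in Adipoq-F2-KO libraries 1 to 4, 4326, 5188, 4771 and 4029. The 4 Adipoq-F2-KO libraries lay close together, and 3 of 4 floxed libraries were above all of them, while floxed library 3 was the lowest of the 8. The means were 6961 ± 2422 (SD, n = 4) and 4578 ± 508 (SD, n = 4), the second being 65.8% of the first. DESeq2 gave a log2 fold change of −0.60 (standard error 0.24, 95% interval −1.08 to −0.13, adjusted p = 0.9998).

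The Dgat2 difference depended on floxed libraries 3 and 4. Without floxed library 4, the highest of the 8, the log2 fold change was −0.44 ± 0.24 (standard error), and the unadjusted p in DESeq2 rose from 0.012 to 0.069. Without floxed library 3 the log2 fold change was −0.82 ± 0.13 (standard error; DESeq2, adjusted p = 1.1e-06), in a fit that called 0.684% of its genes. In the 5 deep libraries it was −0.77 ± 0.16 (standard error; DESeq2, adjusted p = 0.0014), in a fit that called 0.52%. Over all 16 alternatives for Dgat2 the adjusted p ran from 1.1e-06 to 0.99999. In the 3 shallow libraries the order was the opposite, with 3561 in the floxed library against 4771 and 4029 in Adipoq-F2-KO, a log2 ratio of the means of 0.31 against −0.77 in the deep libraries. With 1 floxed library among the shallow ones, that difference between depth classes was not tested. With depth class as a covariate, the log2 fold change was −0.40 ± 0.20 (standard error).

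Floxed library 3 also had the highest sums of smooth muscle, fibroblast and adipocyte markers. Its fibroblast marker sum (6 markers, 5 of them tested) was 1491 normalized counts, against 78.9 to 927 elsewhere. Over the 9 adipocyte markers, of which 4 were tested and Retn never passed 3 raw counts in a library, the sum was 482 to 1207 in floxed libraries and 504 to 807 in Adipoq-F2-KO, with the highest value in floxed library 3. Aqp7 made up 64.8% of that sum. Adipoq, the defining gene of adipocytes, had 123 normalized counts in floxed library 3, 54.1 and 22.6 in Adipoq-F2-KO libraries 3 and 4, and 0 to 1.86 in the 5 deep libraries. The smooth muscle sum was 3688 to 29094 in floxed controls and 4009 to 11893 in Adipoq-F2-KO, with all 8 markers tested. With the smooth muscle score as a covariate, the fold change of Dgat2 on the log2 scale was −0.48 ± 0.18 (standard error). With libraries scaled on villus enterocyte markers it was −0.60. The part of fibroblast and adipocyte RNA in the Dgat2 result was not tested.

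Plpp3, a membrane phosphatase of lysophosphatidic acid, sphingosine phosphate and phosphatidic acid, had the lowest p of the 10. Its normalized counts were 299, 375, 220 and 351 in floxed libraries 1 to 4. They were, in Adipoq-F2-KO libraries 1 to 4, 205, 138, 148 and 250. Of the 4 Adipoq-F2-KO libraries, 3 were below every floxed library, and Adipoq-F2-KO library 4 was above floxed library 3. The means were 311 ± 68.7 and 185 ± 52.4 (SD, n = 4), the second being 59.6% of the first, on raw counts of 74 to 711. DESeq2 gave a log2 fold change of −0.76 (standard error 0.23, 95% interval −1.22 to −0.30, adjusted p = 0.602).

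Plpp3 passed the threshold when floxed library 3 was left out (log2 fold change −0.89 ± 0.22, standard error, with an adjusted p of 0.0091 in DESeq2). It also passed in the 5 deep libraries, at −1.001 ± 0.23 (standard error; DESeq2, adjusted p = 0.0057). Its adjusted p ran from 0.0057 to 0.99998 over 16 alternatives, in all of which the fold change was below 0, from −1.001 to −0.64. Plpp3 is also a gene of blood vessels and stroma. The 8 smooth muscle markers, whose sums are given above, had fitted log2 fold changes below 0, the same direction as Plpp3, with a median of −0.94, and 0 of the 8 were below an unadjusted p of 0.05 in DESeq2. That direction rested on floxed library 3, without which 7 of the 8 were above 0, with a median of 1.153, opposite to Plpp3. With the smooth muscle score as a covariate, the fold change of Plpp3 on the log2 scale was −0.74 ± 0.23 (standard error). The 6 blood endothelium markers, all tested, summed to 36.4 to 291 normalized counts in floxed controls and 52.9 to 404 in Adipoq-F2-KO. The fitted fold change of each was above 0, with a median of 0.24, or 0.87 without floxed library 3. Other marker lists were also higher in Adipoq-F2-KO by fitted fold change, with 7 of 7 macrophage markers (median 0.61, 1 below an unadjusted p of 0.05), 5 of 5 tested B and plasma cell markers (median 0.96, 0 below 0.05), and 8 of 11 tested crypt and proliferation markers (median 0.20, 3 below 0.05). Their sums were 162 to 521, 382 to 2784 and 2316 to 2962 normalized counts in floxed controls and 361 to 664, 980 to 2020 and 2766 to 3509 in Adipoq-F2-KO, in the same order, and Jchain alone made up 92.0% of the B and plasma cell sum. Of the T cell markers, 5 of 7 were above 0 (median 0.29, 1 below 0.05), with sums of 1059 to 1897 in floxed controls and 1269 to 1798 in Adipoq-F2-KO. Of the lymphatic endothelium markers, 5 of 5 tested were above 0 (median 0.064, 0 below 0.05), with sums of 108 to 184 and 115 to 316. The part of these cell types in the results for Plpp3 and Dgat2 was not tested.

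Dgat1 catalyses the same reaction as Dgat2. Its normalized counts were 8833, 7728, 5684 and 7039 in floxed libraries 1 to 4 and 6651, 8361, 5946 and 5828 in Adipoq-F2-KO libraries 1 to 4. Both genotypes covered nearly the same range. The log2 fold change was −0.13, with a 95% interval from −0.45 to 0.20 (DESeq2, adjusted p = 0.9998). It was −0.025 without floxed library 1, −0.075 and −0.069 without Adipoq-F2-KO libraries 3 and 4, −0.23 without floxed library 3 and −0.26 without Adipoq-F2-KO library 2. Dgat2 made up 46.5%, 48.3%, 38.3% and 56.6% of the DGAT level per kb in floxed libraries 1 to 4 and 39.2%, 38.1%, 44.3% and 40.7% in Adipoq-F2-KO libraries 1 to 4. The means were 47.4% ± 7.51 and 40.6% ± 2.71 (SD, n = 4), and the libraries of the genotypes overlapped. The DGAT step as a whole had 4654 ± 1115 normalized counts per kb in the controls and 3676 ± 519 in Adipoq-F2-KO. The genotypes overlapped, with floxed library 3, at 3015, the lowest of the 8.

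**Figure D3:**
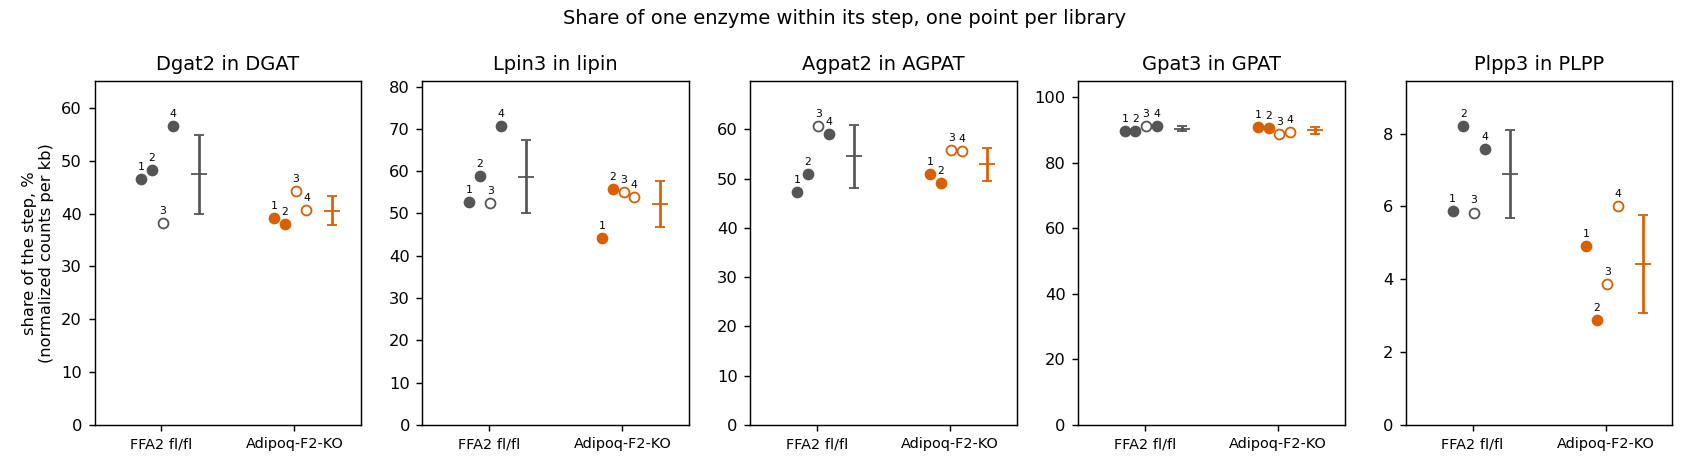
Share of 1 enzyme in the summed level per kb of its step, in percent, in each library (points, with the replicate number; open points are shallow libraries) with the mean and SD of each genotype, n = 4. Dgat2 held 38.1% to 56.6% of the DGAT level and Gpat3 88.8% to 91.2% of the GPAT level, and the genotypes overlap in every panel.

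Mogat2 lies next to Dgat2 on mouse chromosome 7. In GENCODE M21 (GRCm38), Dgat2 spans 99153658 to 99182719 and Mogat2 99219084 to 99238619, both on the minus strand, 36364 bases apart with 0 annotated genes between them. The normalized counts of Mogat2 were 4902, 4587, 3340 and 5437 in floxed libraries 1 to 4. They were, in Adipoq-F2-KO libraries 1 to 4, 3868, 4954, 3368 and 3264. As for Dgat2, floxed library 4 was the highest, but Adipoq-F2-KO library 2 was above 3 of the 4 floxed libraries. The log2 fold change was −0.24 with a 95% interval from −0.60 to 0.12 (DESeq2, adjusted p = 0.9998). It was −0.15 without floxed library 4, −0.36 without floxed library 3 and −0.39 without Adipoq-F2-KO library 2.

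Among the acyltransferases of the glycerol phosphate route, Gpat3 was the steadiest of the 10, with a coefficient of variation of 7.63% over 8 libraries. Its normalized counts were 2046, 2075, 2367 and 2033 in floxed libraries 1 to 4 and 1951, 1936, 1852 and 2136 in Adipoq-F2-KO libraries 1 to 4. Of the 4 Adipoq-F2-KO libraries, 3 were below every floxed library, by small amounts. The log2 fold change was −0.11 with a 95% interval from −0.29 to 0.07, and it was −0.059 without floxed library 3. The lower limit of the interval lay between −0.36 and −0.24 over the alternatives with a standard error. Gpat4 had 200 to 270 normalized counts in floxed controls and 226 to 306 in Adipoq-F2-KO. Its log2 fold change was 0.02 (interval −0.30 to 0.34), and its sign was not stable. Agpat2 had 1857, 2137, 2139 and 3004 in floxed libraries 1 to 4 and 1704, 1970, 1954 and 1814 in Adipoq-F2-KO libraries 1 to 4. Its highest library was floxed 4, and 2 of 4 Adipoq-F2-KO libraries were below every floxed library. The log2 fold change was −0.30 with an interval from −0.60 to 0.01 (DESeq2, adjusted p = 0.9998), and −0.13 without floxed library 4.

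Among the phosphatases, Lpin3 had 1301, 1300, 889 and 1430 normalized counts in floxed libraries 1 to 4 and 995, 1321, 887 and 840 in Adipoq-F2-KO libraries 1 to 4. Its log2 fold change was −0.28 with an interval from −0.65 to 0.09, and −0.44 without Adipoq-F2-KO library 2. Lpin2 had 3794, 2911, 2551 and 1926 in the controls and 4094, 3353, 2320 and 2288 in Adipoq-F2-KO. It was highest in library 1 of each genotype and lowest in floxed library 4, where Lpin3 was highest, and its log2 fold change was 0.11 with an interval from −0.36 to 0.58. The Lpin3 share of the lipin level ran from 44.2% in Adipoq-F2-KO library 1 to 70.7% in floxed library 4. Plpp1 had 592 to 855 normalized counts in floxed controls and 643 to 866 in Adipoq-F2-KO. Its log2 fold change was −0.04 (interval −0.34 to 0.26). The adjusted p of Gpat3, Gpat4, Lpin2, Lpin3 and Plpp1 was 0.9998 in DESeq2. The signs of Lpin2 and Plpp1 turned when single libraries were left out.

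**Figure D4:**
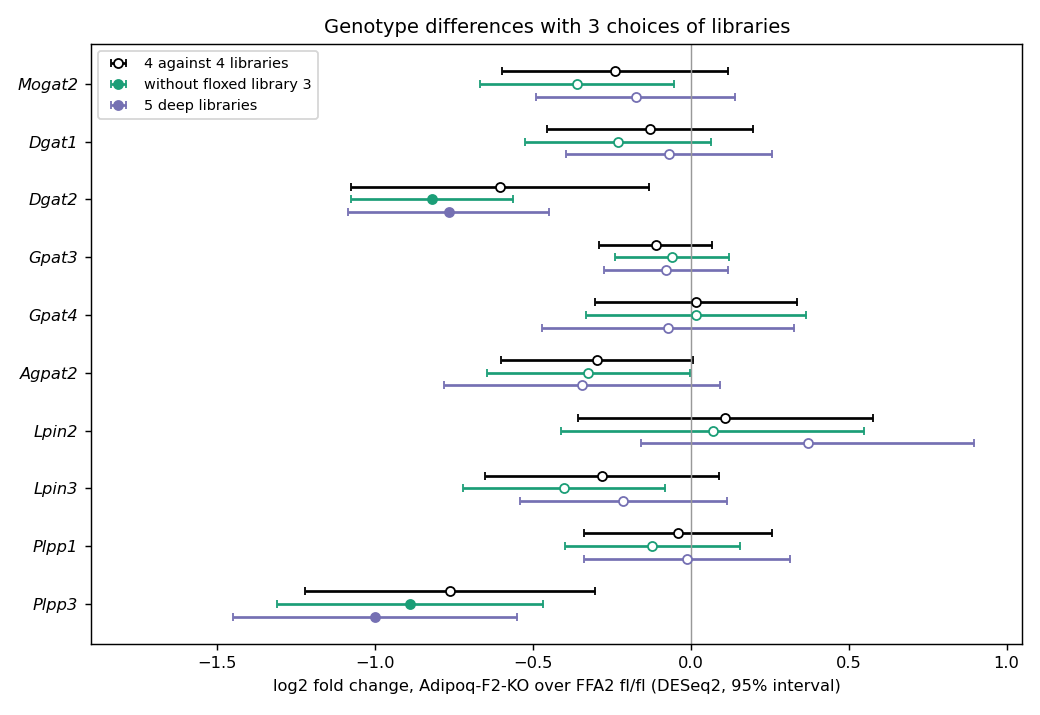
DESeq2 log2 fold change of each of the 10 genes, Adipoq-F2-KO over FFA2 fl/fl, with its 95% interval, for all 8 libraries, without floxed library 3 and for the 5 deep libraries; filled points have an adjusted p below 0.05. Dgat2 and Plpp3 are filled in both smaller sets of libraries (−0.82 and −0.77, and −0.89 and −1.001), and no gene is filled with all 8.

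Several of these genes differed between the shallow and the deep libraries. The 3 shallow libraries lay below all 5 deep libraries for 4 of the 10 genes, Mogat2, Dgat1, Lpin3 and Plpp1, where 7.06% of all tested genes did so. Mogat2 had 3264 to 3368 normalized counts in the shallow libraries and 3868 to 5437 in the deep ones. Dgat1 had 5684 to 5946 against 6651 to 8833, Lpin3 had 840 to 889 against 995 to 1430, and Plpp1 had 592 to 667 against 688 to 866. In a DESeq2 fit with genotype and depth class, 3 of the 10 were lower in the shallow libraries at an adjusted p below 0.05, against 0.901% of all tested genes. These were Mogat2 (log2 difference −0.48, standard error 0.12, adjusted p = 0.0092), Lpin3 (−0.50, standard error 0.13, adjusted p = 0.016) and Dgat1 (−0.40, standard error 0.12, adjusted p = 0.045). Dgat2 was at −0.54 with a standard error of 0.20 (adjusted p = 0.127), Lpin2 at −0.46 with 0.21 (adjusted p = 0.236) and Plpp1 at −0.31 with 0.13 (adjusted p = 0.202), while Plpp3 was at −0.13, Agpat2 was at −0.03, Gpat3 at 0.11 and Gpat4 at 0.10. The fit with depth class as a term was added after the values had been seen.

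**Figure D5:**
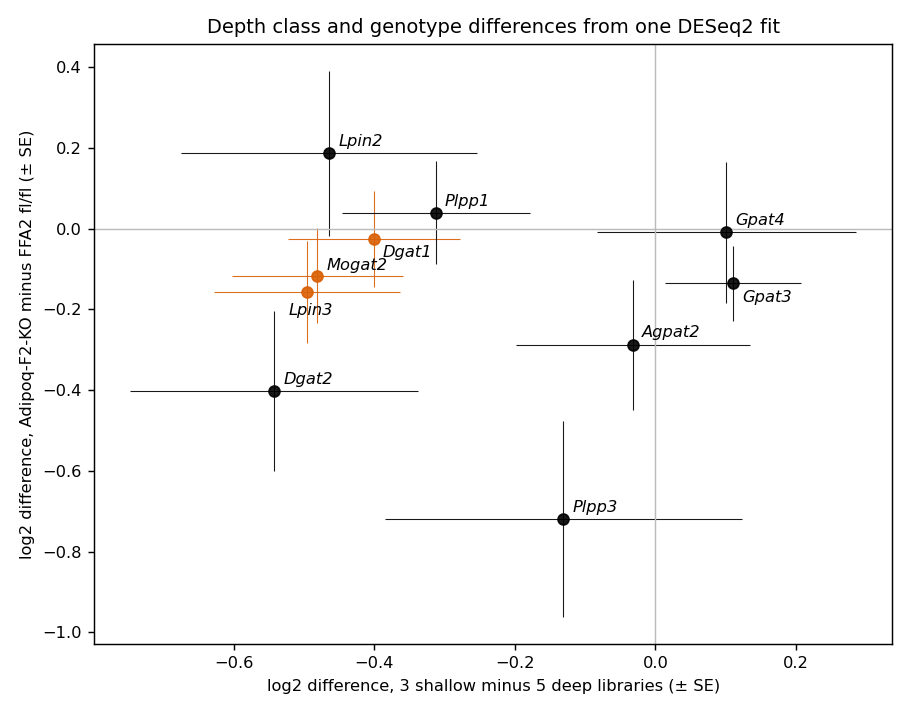
Log2 difference between the 3 shallow and 5 deep libraries (horizontal axis) and between Adipoq-F2-KO and FFA2 fl/fl (vertical axis) from 1 DESeq2 fit with both terms, bars ± SE; orange points have an adjusted p below 0.05 for depth class. Mogat2, Lpin3 and Dgat1 lie at −0.40 to −0.50 for depth and −0.03 to −0.16 for genotype, and Plpp3 lies at −0.13 for depth and −0.72 for genotype.

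With depth class in the fit, the genotype differences of Mogat2, Dgat1 and Lpin3 shrank to −0.12, −0.03 and −0.16, and Plpp1 moved to 0.04. Plpp3 stayed at −0.72 and Agpat2 at −0.29. The shallow libraries were floxed library 3 and Adipoq-F2-KO libraries 3 and 4, so depth class was not balanced between the genotypes. This fit cannot fully tell the parts of depth and genotype apart. Some marker sums also differed between the depth classes. The blood endothelium sum was 291 to 404 normalized counts in the shallow libraries and 36.4 to 246 in the deep ones, and the fibroblast sum was 561 to 1491 against 78.9 to 552. The adipocyte sum was 752 to 1207 against 482 to 669, and the enteric neuron and glia sum was 64.1 to 171 against 20.6 to 51.1. The smooth muscle sum overlapped, at 5938 to 29094 against 3688 to 7856. So did the macrophage sum, at 443 to 664 against 162 to 554. The goblet, Paneth, enteroendocrine, tuft, crypt and proliferation, lymphatic endothelium, B and plasma cell and T cell sums overlapped too. The villus enterocyte sum was 565780 to 607810 in the shallow libraries and 531005 to 576123 in the deep ones. These ranges overlapped, and Sis made up 23.7% of the sum. The part of any of these cell types, enterocytes included, in the depth differences was not tested.

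The genes fell into groups that varied together over the 8 libraries. As a description over points that share depth class, Mogat2 and Lpin3 were almost parallel (Pearson's r = 0.99 of log2 normalized counts, pseudocount 1), and so were Dgat1 and Plpp1 (r = 0.98). Dgat2 went with Lpin3 (r = 0.88) and Mogat2 (r = 0.87) more than with Dgat1 (r = 0.69). Lpin2 and Agpat2 went in opposite directions (r = −0.68), and Gpat3 followed none of the other members closely, with r from −0.47 to 0.41. Among all tested genes with a mean of at least 50 normalized counts, the pattern most like that of Mogat2 was Lpin3, then Tbc1d24 (r = 0.98) and Entpd8 (r = 0.98), and Lpin3 had the same 2 genes after Mogat2. For Dgat2 these were Sec16b, Tmem161a and Sec14l1 (each r = 0.98). For Dgat1 they were Naprt (r = 0.99), Kdelr1 (r = 0.99) and Syvn1 (r = 0.98), and Kdelr1 and Naprt also led for Plpp1, before Map2k2 (each r = 0.98).

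For the other genes the likeness was as high or lower. Plpp3 was most like Slc16a10 (r = 0.97), Gm17276 (r = 0.95) and Gm37113 (r = 0.93), and Agpat2 most like Eps8l2 (r = 0.98), Sulf2 (r = 0.97) and 2310007B03Rik (r = 0.95). Lpin2 was most like Gm34408 (r = 0.97), Mafk (r = 0.97) and Leng9 (r = 0.96). Gpat3 was most like Lrrc42 (r = 0.97), Dmxl2 (r = 0.96) and Use1 (r = 0.91), and Gpat4 most like Sntb2 (r = 0.94), Ociad2 (r = 0.94) and Slc35d1 (r = 0.93).

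The wider pathway was described by 6 lists holding 76 genes, of which 71 were tested. None of the 71 passed an adjusted p of 0.05 in DESeq2, and 6 had an unadjusted p below 0.05, 3 lower and 3 higher, with a median log2 fold change of −0.06. Of all tested genes, 1.38% were lower and 1.65% higher at that threshold, and the fitted fold change was below 0 for 8233 and above 0 for 7753. Of the 12 other isoforms of the same steps, 9 were tested and 0 were below 0.05 unadjusted, with log2 fold changes from −0.21 to 0.24. All 14 genes that supply acyl chains and glycerol phosphate were tested, and 10 had a fold change above 0. Acsl3, an acyl-CoA synthetase, had means of 671 ± 217 and 1017 ± 469 normalized counts (SD, n = 4) and a log2 fold change of 0.60 (DESeq2, adjusted p = 0.9998). Adipoq-F2-KO library 1, at 1710, carried much of that value, which was 0.22 without it. The mitochondrial glycerol phosphate dehydrogenase Gpd2 had a log2 fold change of 0.20 (DESeq2, adjusted p = 0.9998).

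Downstream of synthesis, 16 genes of lipid droplets and chylomicrons were tested, and 11 had a fold change below 0. Cidec, a droplet protein that promotes droplet growth, had 1468, 1462, 1242 and 1706 normalized counts in floxed libraries 1 to 4 and 1130, 942, 1179 and 959 in Adipoq-F2-KO libraries 1 to 4. All 4 Adipoq-F2-KO libraries were below all floxed libraries, floxed library 3 included. Its log2 fold change was −0.49 with an interval from −0.74 to −0.23 (DESeq2, adjusted p = 0.232). Like Dgat2 and Plpp3 it passed the threshold without floxed library 3 (−0.55, DESeq2 adjusted p = 0.0042) and in the 5 deep libraries (−0.58, DESeq2 adjusted p = 0.026), and its adjusted p ran from 0.0042 to 0.99999 over 16 alternatives. Pla2g12b, which takes part in the lipidation of lipoproteins, also did not overlap, at 809 to 883 in the controls and 643 to 775 in Adipoq-F2-KO. Its log2 fold change was −0.25 (DESeq2, adjusted p = 0.9998). Cidec and Pla2g12b were named for their low unadjusted p, and 2.12% of all tested genes had no overlap. The chylomicron genes Mttp and Apob had log2 fold changes of 0.01 and 0.03.

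Of 10 genes of triacylglycerol hydrolysis, 8 were tested, 6 with a fold change below 0, and 0 were below an unadjusted p of 0.05. Likewise 0 of the 12 genes that use phosphatidic acid or diacylglycerol for other lipids were below 0.05 unadjusted, 8 with a fold change below 0. Of 12 regulators, the nuclear receptors Hnf4g (log2 fold change 0.43) and Nr1h3, the liver X receptor alpha (−0.28), were below 0.05 unadjusted and had a DESeq2 adjusted p of 0.9998. Hnf4g was at 0.25 without Adipoq-F2-KO library 1 and at 0.71 in the deep libraries.

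Reads that overlapping genes share limit some of these values, since the strand setting of the counting is not given in the sources used here. Plpp1 shares 452 bases of exon with Mtrex on the other strand, which had 3107 raw counts over all libraries against 7034 for Plpp1. Gpat3 shares 1052 bases with an antisense gene of 1069 counts and 259 bases with Gm42987 on its own strand, against 18727 counts of its own. Agpat2 shares 64 bases with Egfl7 and Mogat2 55 bases with Gm45012, both on the opposite strand. Dgat1, Dgat2, Plpp3, Lpin2 and Gpat4 overlapped no annotated gene, and Lpin3 overlapped 1 antisense gene without shared exon.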

How the data were processed

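Per the labels and the study's methods, the authors trimmed reads with Trimmomatic, aligned them with STAR and counted them per Ensembl gene with featureCounts; the processing notes name GRCm38 and mm10. The deposited values are raw counts per gene and library, neither normalized nor pooled. Tool versions, annotation release and strand setting are not given in the sources used here. Symbols, positions and exon lengths came from GENCODE M21, whose models may differ from those counted; it covered 52125 of 56980 identifiers and 99.3% of counts.

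DESeq2 1.42.0 (R 4.3.3), the study's tool, was run with genotype as the only term on genes that reached 10 counts in 4 or more libraries, using the Wald test (two-sided) with p adjusted by Benjamini-Hochberg over all tested genes; 8 genes received no p. Intervals of 95% are from the standard errors. edgeR 4.0.16 was an alternative. The 12 pairs of libraries within genotypes differed by a chi-square of 5.16 to 50.3 per gene, so none was a duplicate. The members and lists were chosen with earlier results of these data known. All members were named, with up to 3 genes per list of unadjusted p below 0.05 and, for each member, the 3 genes of highest correlation; Mttp, Apob and genes that overlap members were named in addition. Both tests were checked on simulated counts. Depth was 6007654 to 21712776 counts per library, and errors cover counting and the spread between libraries, without molecular identifiers.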

Additional observations from a re-analysis of the deposited data

Results flagged for a closer look

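Among the 20 sets of 4 libraries (10 genes in each genotype), 1 held a library far from the other 3. Gpat3 in the floxed controls had its highest value, 2367 normalized counts, in floxed library 3, and the gap to the next library was 0.876 of the whole range, past the 95% limit of Dixon's test. Chance gives about 1 such library in 20 sets. The low value of Dgat2 in the same library did not pass that threshold.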

How the results depend on the processing

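The count of called genes was 6 with the reported settings, 2 with edgeR, 3 with no filter on low counts, 13 with the smooth muscle score as a covariate, 81 in the 5 deep libraries, 3 with size factors from villus enterocyte markers and 3 with depth class as a covariate (chosen after seeing the data). Leaving out single libraries gave 1 to 108, the highest without floxed library 3 and the lowest without floxed library 1; it was 18 without floxed library 2 and 2 without floxed library 4. The count of called members was 0 throughout except 2 (Dgat2 and Plpp3) in the deep libraries, and 0 to 2 over the libraries left out, with 2 only without floxed library 3; the cause was not tested. Of 160 values of the members' fold changes under alternatives, 147 kept direction and side of the threshold, 4 came to pass it and 9 changed sign. Gpat4 was at −0.072 in the deep libraries, −0.0092 with depth class and −0.085 to 0.069 over single libraries left out, below 0 when that was library 4 of either genotype. Lpin2 was at 0.37 in the deep libraries, 0.19 with depth class and −0.073 to 0.29 over libraries left out, below 0 without floxed library 4 and without Adipoq-F2-KO library 1. Plpp1 was at 0.039 with depth class and −0.15 to 0.040 over libraries left out, above 0 without floxed library 1 and without Adipoq-F2-KO library 4. Mean shares without length correction were 84.0% for Gpat3, 35.00% for Agpat2 (Agpat3 35.08%), 27.9% for Lpin3 and 10.1% for Plpp3, and Lpin2 led Lpin3 at 70.4%, or 60.1% with principal transcript lengths.

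The replicate numbers, which come from the sample titles, did not show a consistent pairing of the libraries. They need not number the mice, so whether the mice came in pairs was not tested. Correlations of same-numbered deviations were 0.54, 0.34, −0.005 and −0.43 for numbers 1 to 4, and 2 of 4 floxed libraries correlated best with their own number. With a replicate block 11 genes and 0 members were called, and Dgat2 was at −0.53 ± 0.36 (standard error; unadjusted p in DESeq2 0.144). The lowest raw counts in a library were 74 for Plpp3 and 113 for Gpat4.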
